A study of Mus musculus with 19 samples.

Results

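T cells and natural killer (NK) cells were followed in obstructed mouse kidneys through 40 genes that mark them or carry out their work. The genes were taken by name from the count table, and all 40 were found among its 54532 genes. They cover the T cell receptor complex, the coreceptors CD4 and CD8, costimulatory and inhibitory receptors, proximal signalling, cytotoxic granules, NK cell receptors, interferon gamma, 4 transcription factors and 2 broad surface antigens.

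A T cell recognises a peptide through its T cell receptor, whose signal enters the cell through the CD3 chains and the zeta chain. The coreceptors bring the kinase LCK to the complex, ZAP-70 and the adaptor LAT pass the signal on, and costimulatory or inhibitory receptors set its strength. NK cells use germline-encoded receptors instead, and share with cytotoxic T cells the granzymes and perforin that kill target cells. Unilateral ureteral obstruction (UUO) is known to draw T cells, alongside macrophages, into the interstitium of the blocked kidney.

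Male mice of the C57BL/6J background, 8 to 9 weeks old, had the left ureter tied, and the whole obstructed kidney was taken on day 12. They were wild-type (WT) or lacked CD5L (CD5L KO), a circulating macrophage protein, and received recombinant CD5L (rCD5L) at 0.5 mg per mouse or PBS by daily intraperitoneal injection. Each group had 5 kidneys, except for CD5L KO mice on PBS, with 4. Every kidney was obstructed and perfused with heparin, and bulk RNA of the whole organ was sequenced, so that fewer cells of a type and less RNA per cell cannot be told apart.

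Total counts were 17917491 to 23847090 per kidney. Cd5l had 0 counts in all 9 CD5L KO kidneys, each of which allows up to 3 counts, and 3 to 15 counts in the 10 WT kidneys. The 40 genes made up 0.00817% to 0.0497% of the counts of a kidney. Levels are given as CPM, which are counts relative to the TMM-scaled library size, and as FPKM, which is per gene length, where genes are compared with each other. Tests are the quasi-likelihood test of edgeR, with p-values adjusted over all genes tested (Benjamini-Hochberg), and a gene was called when its adjusted p-value was under 0.05.

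The CD3 genes and Foxp3 are shown with the sequence just upstream of their start. The CD3 chains define the T cell, and Foxp3 was the member whose kidneys did not overlap between the groups of 1 comparison. Of all genes tested in that comparison, 3.67% did not overlap. The 250 bases before the RefSeq start (GRCm38.p6) are given 5′ to 3′ on the strand of the gene. Capitals mark the letters AGGAAG on either strand, a core that ETS factors bind. The first line is Cd3d, chr9:44981536-44981785, plus strand. The second is Cd3g, chr9:44980432-44980681, minus strand, and the third is Cd3e, chr9:45009612-45009861, minus strand. The fourth is Foxp3, chrX:7579426-7579675, plus strand.
Cd3d: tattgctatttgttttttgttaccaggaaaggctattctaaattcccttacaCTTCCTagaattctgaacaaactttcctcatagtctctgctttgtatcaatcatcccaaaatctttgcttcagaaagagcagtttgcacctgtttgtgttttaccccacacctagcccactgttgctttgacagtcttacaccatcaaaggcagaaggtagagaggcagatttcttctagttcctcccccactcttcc
Cd3g: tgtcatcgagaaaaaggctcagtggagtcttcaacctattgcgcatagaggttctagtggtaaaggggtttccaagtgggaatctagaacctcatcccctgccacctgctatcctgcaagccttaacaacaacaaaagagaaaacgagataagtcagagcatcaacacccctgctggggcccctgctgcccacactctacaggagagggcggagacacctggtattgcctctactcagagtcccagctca
Cd3e: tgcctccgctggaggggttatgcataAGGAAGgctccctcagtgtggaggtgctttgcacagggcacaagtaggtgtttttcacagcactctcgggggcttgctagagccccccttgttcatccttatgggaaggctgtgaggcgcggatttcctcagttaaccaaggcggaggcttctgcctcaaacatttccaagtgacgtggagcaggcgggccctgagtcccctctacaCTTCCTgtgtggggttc
Foxp3: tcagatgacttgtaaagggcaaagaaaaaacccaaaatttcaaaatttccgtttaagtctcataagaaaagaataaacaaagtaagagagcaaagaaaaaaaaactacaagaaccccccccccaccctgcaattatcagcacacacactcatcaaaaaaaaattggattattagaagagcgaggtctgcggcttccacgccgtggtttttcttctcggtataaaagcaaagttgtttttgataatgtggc
Cd3d and Cd3g are transcribed away from each other, from starts 1355 bases apart. The window of Cd3e held 2 matches to AGGAAG, that of Cd3d held 1, and those of Cd3g and Foxp3 held 0. RefSeq has a second start of Foxp3, 807 bases downstream, whose window (chrX:7580233-7580482, not printed) held 1 match. Among 32851 RefSeq promoter windows of the same length, 29.5% held a match. TGTGGT, a core that RUNX factors bind, was in 0 of the 4 windows printed and in 14.0% of all promoters. TATAAA was found 1 time, in the printed Foxp3 window and not in that of the second start, and in 12.4% of all promoters. Promoter entries existed for 27 of the 40 genes.

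T cell and NK cell transcripts were scarce in these kidneys. Per length, Thy1 was the highest, with a mean of 23.1 FPKM over the 19 kidneys, but it is a surface antigen of mouse T cells that fibroblasts and neurons also carry. It was followed by the T cell receptor beta constant genes Trbc2 (9.89) and Trbc1 (5.72), by the granule gene Nkg7 (5.02) and by Ptprc (4.83), which encodes the pan-leukocyte antigen CD45. Cd4 had a mean of 2.12 FPKM, Cd8a 1.51, Cd3e 0.697, Foxp3 0.367 and Ncr1, an activating receptor of NK cells, 0.354. Ifng was the lowest, at 0.160 FPKM, and 16 of the 19 kidneys held under 10 counts of it. Cd40lg, the helper ligand for CD40, was under 10 counts in 11 kidneys. Trbc1 and Trbc2 are near copies, with 95.6% identity over 521 aligned bases, and 110 of the 543 stretches of 150 bases in Trbc2 also occur in Trbc1, so how reads were divided between them is uncertain. Another 16 of the 40 genes, among them Cd3e, Cd247, Cd27, Gzmk, Foxp3 and Ptprc, overlap a gene of the table and share this doubt.

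Kidneys differed from each other as a whole. In WT mice given PBS, kidney 1 had the highest level in its group for 35 of the 40 genes. In each of the groups WT rCD5L and CD5L KO PBS, kidney 1 was the highest for 26 of 40. Kidney 3 of the CD5L KO mice given PBS was the lowest of its group for 31 genes. These kidneys stand out as whole columns in the map of all genes by kidney.

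Kidney 4 of the CD5L KO mice given rCD5L stood apart from every other. It had the lowest level of all 19 kidneys for 27 of the 40 genes, and its level was a median 33.4% of the median of kidneys 1, 2 and 5 of its group. Its summed level of the 40 genes was 115 CPM, where the other 18 kidneys had 272 to 469. The same kidney had 14785 CPM of 10 kidney markers against 3958 to 6762 elsewhere, 10.3% mitochondrial counts against 2.34% to 4.55%, 613 CPM of macrophage markers against 1204 to 1908, and a TMM factor of 0.713. The part of these in the levels of the T cell and NK cell genes was not tested. Ifng, Ncr1 and Eomes were exceptions and were above the median of kidneys 1, 2 and 5 there.

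Kidney 3 of that group was low for a different subset. Ptprc was at 49.8 CPM there, and Cd28, Gzmk, Cd27, Klrk1, Cd8a, Havcr2 and Ifng were also under 50% of the median of kidneys 1, 2 and 5. Foxp3 (202%), Ctla4 (181%) and Tigit (178%) were above that median, and Trbc1 (103%) and Lck (101%) were level with it. For rCD5L in CD5L KO mice, log2 fold changes are therefore also given with kidney 4, or kidneys 3 and 4, left out.

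**Figure D1:**
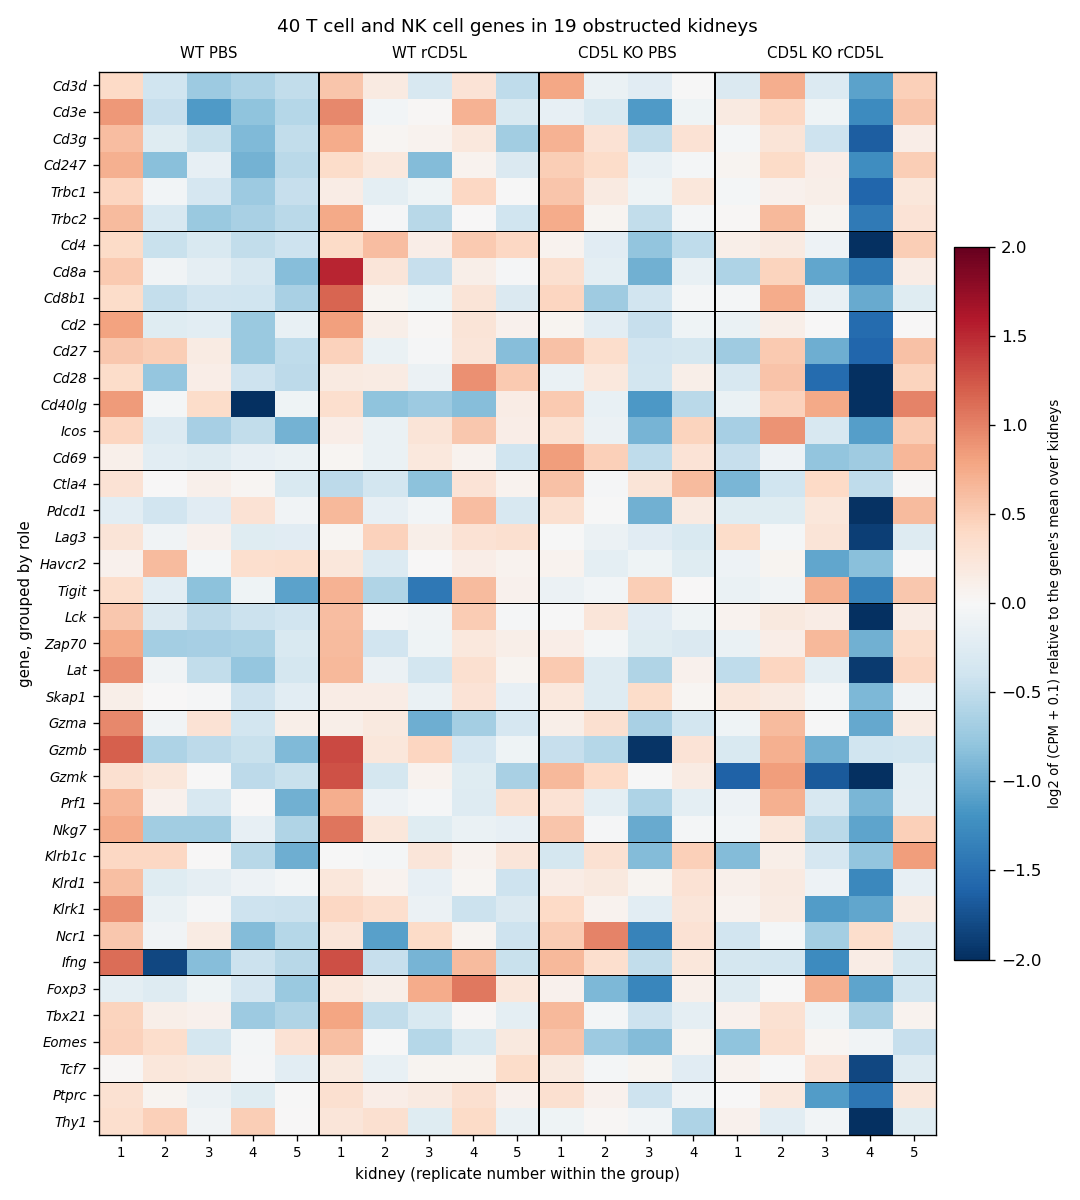
Each row is a gene, grouped by role, and each column a kidney, by group and replicate number. Colour is the log2 of CPM + 0.1 relative to the gene's mean over kidneys, with red above and blue below it. Kidney 4 of the CD5L KO mice given rCD5L is blue in most rows, and kidney 1 is red in most rows in WT mice given PBS, where it was the highest for 35 of 40 genes.

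To ask whether rCD5L altered the T cell and NK cell signal in WT mice, WT kidneys given rCD5L were compared with WT kidneys given PBS. Of the 38 genes tested, 0 were called, as were 0% of all 17455 genes tested. At an unadjusted p-value under 0.05 there were 6, Cd4, Foxp3, Ptprc, Cd28, Cd8b1 and Icos, each higher with rCD5L, where 16.0% of all genes had one, so that the share of these genes was near the background. DESeq2 called 1 of the 40, Cd4, and 1.60% of the 31830 genes with a count. In 30 of the 38, the log2 fold change was above 0, with a median of 0.26, where the median of all genes was 0.00456.

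Foxp3, the transcription factor of regulatory T cells, had the largest log2 fold change. It was at 1.55, 1.47, 1.67, 1.40 and 1.02 CPM in the 5 kidneys given PBS. The 5 kidneys given rCD5L had 2.09, 1.94, 3.03, 3.82 and 2.12 CPM. Every kidney given rCD5L was thus above every kidney given PBS, and Foxp3 was the only one of the 38 without overlap, which 3.67% of all genes tested showed in one direction or the other. The share of the 38 without overlap was thus not above that of all genes. The log2 fold change was 0.88 (standard error 0.235, 95% interval 0.38 to 1.39, adjusted p = 0.121 from edgeR), so the gene was not called. Its adjusted p ranged from 0.0972 to 0.9998 over the alternatives. The levels rest on 22 to 35 counts per kidney with PBS and on 37 to 77 with rCD5L, and the gene (ENSMUSG00000039521, chromosome X, 7579676 to 7595243) overlaps Flicr on its own strand and Ccdc22 on the other, whose reads may not have been kept apart since the strand setting is not given in the sources used here.

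Cd4 (ENSMUSG00000023274, chromosome 6, 124864692 to 124888221), the coreceptor of helper and regulatory T cells, had the smallest p-value of the genes tested here. In the kidneys given PBS it was at 13.7, 7.66, 8.38, 7.36 and 7.83 CPM. With rCD5L it was at 13.7, 15.99, 11.5, 15.1 and 13.9 CPM. Kidney 1 of the PBS group was within the range of the treated kidneys, and the other 4 were below all of them. The log2 fold change was 0.65 (standard error 0.161, 95% interval 0.31 to 0.996, adjusted p = 0.113 from edgeR). It was called by DESeq2 (adjusted p = 0.00983), by edgeR with no filter (0.0444) and by edgeR without kidney 1 of the PBS group (0.0187), and its adjusted p ranged from 0.00983 to 0.9998 over 19 alternatives. In mice, some dendritic cells also carry CD4. Dendritic cell markers summed to 117 to 168 CPM with PBS and to 137 to 170 CPM with rCD5L, 6 of the 8 had a log2 fold change above 0 (median 0.14) and 0 were called. Their part in the level of Cd4 was not tested.

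The genes of CD8 T cells had similar fold changes with a wider spread. Cd8a, which encodes the alpha chain, was at 9.64, 6.36, 5.91, 5.38 and 3.66 CPM with PBS and at 19.6, 7.97, 4.87, 7.30 and 6.59 with rCD5L. The groups overlapped, and 1 treated kidney, kidney 1, was far above the rest. The log2 fold change of Cd8a was 0.59 (standard error 0.336, adjusted p = 0.407 from edgeR). Cd8b1, the beta chain, was at 5.08, 2.78, 3.0005, 2.96 and 2.46 CPM with PBS and at 8.95, 4.09, 3.68, 4.72 and 3.19 CPM with rCD5L. Its log2 fold change was 0.61 (standard error 0.281, adjusted p = 0.307), again with kidney 1 the highest in both groups, and the other 4 treated kidneys were above the other 4 given PBS. The share of all genes that part in this way without the highest kidney of each group was not computed.

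All 6 genes of the T cell receptor complex had log2 fold changes above 0, from 0.18 for Cd247, the zeta chain, to 0.60 for Cd3e, with a median of 0.31 and 0 called. Cd3e had 6.41, 2.48, 1.52, 1.94 and 2.32 CPM with PBS and 6.86, 3.35, 3.55, 5.66 and 2.79 CPM with rCD5L. The lowest treated kidney was above 4 of the 5 kidneys given PBS, but kidney 1 of the PBS group was the second highest of the 10 (standard error of the log2 fold change 0.362, adjusted p = 0.437). The genes Cd3d (0.41), Cd3g (0.35), Trbc1 (0.26) and Trbc2 (0.27) had log2 fold changes between these. The 4 proximal signalling genes were also all above 0, from 0.17 for the adaptor Skap1 to 0.40 for Lck.

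Costimulatory and inhibitory receptors had log2 fold changes of both signs. Among the costimulatory and activation genes, Cd28, the main costimulatory receptor of naive T cells, was at a log2 fold change of 0.59, with a standard error of 0.263 (adjusted p = 0.292), and its relative Icos at 0.55 (standard error 0.254, adjusted p = 0.309). Cd2 was at 0.32, Cd69 at 0.12 and Cd27 at -0.07. Of the inhibitory receptors, Ctla4 (-0.26) and Havcr2, which encodes TIM-3 (-0.24), had log2 fold changes below 0, while Tigit (0.40), Pdcd1 (0.33) and Lag3 (0.29) were above 0. Foxp3 and Ctla4, both borne by regulatory T cells, thus had log2 fold changes of opposite sign. No test was made of the differences between these receptors.

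The cytotoxic and NK cell genes also overlapped between WT kidneys with and without rCD5L. Gzmb, granzyme B, was at 3.05, 0.80, 0.857, 0.914 and 0.649 CPM with PBS and at 3.37, 1.52, 1.75, 0.993 and 1.2 with rCD5L, a log2 fold change of 0.50 with a standard error of 0.444. Kidney 1 was the highest in both groups, and the other 4 treated kidneys were above the other 4 given PBS. As for Cd8b1, the share of all genes that part in this way was not computed. Gzma, granzyme A, was at -0.55 (standard error 0.294, adjusted p = 0.383), and Nkg7, Gzmk and Prf1, which encodes perforin, were at 0.43, 0.27 and 0.22. The 4 NK cell receptors ranged from -0.07 for Klrd1 to 0.16 for Klrb1c, with Ncr1 at 0.01 (standard error 0.383) and Klrk1 at -0.06. Ncr1 was at 0.323 to 1.02 CPM with PBS and at 0.262 to 0.898 CPM with rCD5L. The transcription factors of cytotoxic and NK cells, Tbx21 (0.12) and Eomes (-0.13), and Tcf7 (0.08), the factor of naive and memory T cells, were near 0.

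Ptprc was at 133, 112, 100, 91.5 and 108 CPM with PBS and at 135, 119, 122, 135 and 115 CPM with rCD5L. All 5 treated kidneys were above 4 of the 5 given PBS, and the log2 fold change was 0.21 (standard error 0.0867, adjusted p = 0.246). Thy1 was at -0.12 (standard error 0.133). Ifng and Cd40lg were below the filter on low counts, and Ifng had 0 to 0.663 CPM with PBS and 0.0855 to 0.767 CPM with rCD5L.

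**Figure D2:**
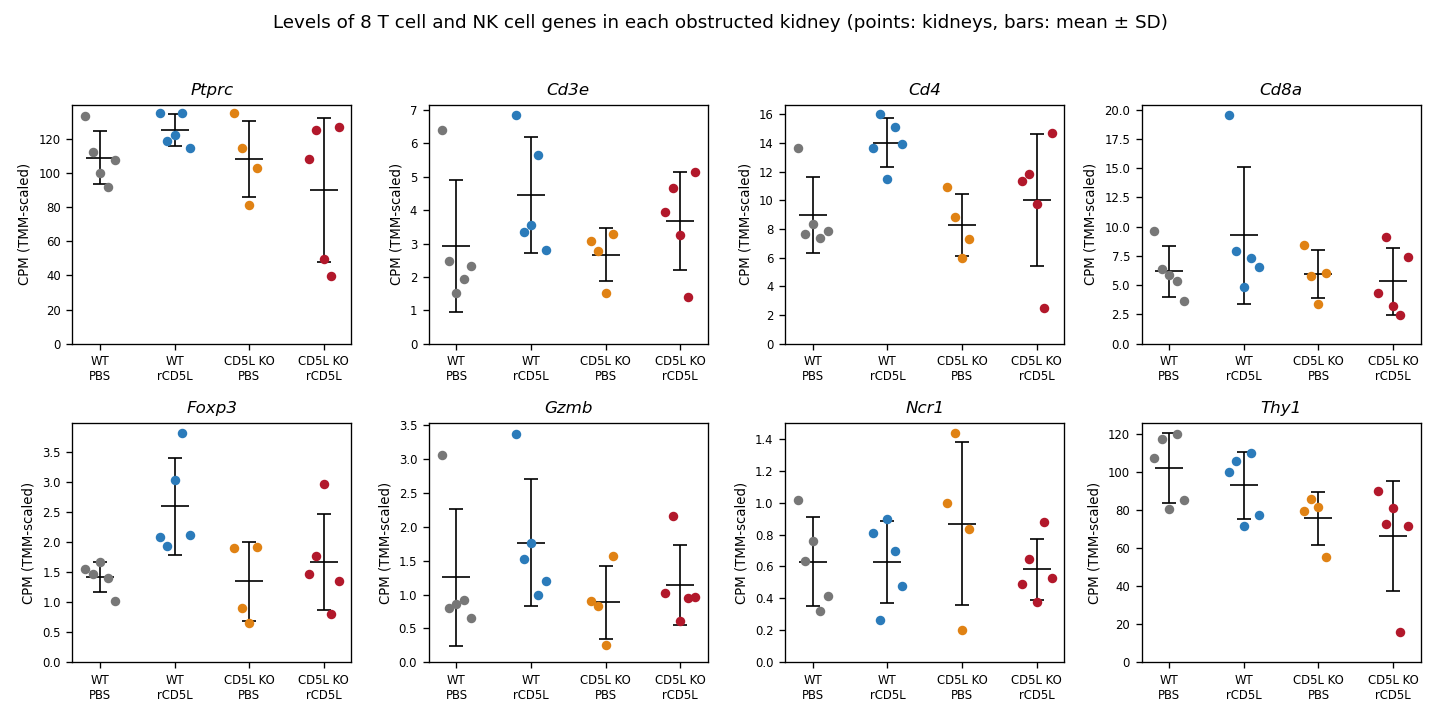
Each panel plots the TMM-scaled CPM of 1 gene in each kidney by group, with the bar at the mean and whiskers of 1 SD. The 5 WT kidneys given rCD5L lie above all 5 given PBS for Foxp3, from 1.94 against at most 1.67 CPM, while 1 kidney given PBS reaches them for Cd4.

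Other genes of these cells, taken from lists, also gave differences that were not called. Of 25 other T cell genes, 24 had a log2 fold change above 0 in WT kidneys given rCD5L (median 0.20), 0 were called, and Prkcq (0.26) and Ubash3a (0.50), both of T cell receptor signalling, were among those with the smallest p-values. Of 15 other NK cell genes tested, 8 were above 0, with a median of 0.01, and 0 were called. Among these, Klre1 and Klra7, both NK cell receptors, were at -0.56. For the gamma-delta and innate-like T cell genes, 5 of 6 tested were above 0 (median 0.23) and 0 were called. The one below 0, Zbtb16, had the smallest p-value of that list, at -0.98 (adjusted p = 0.160), a larger difference than that of any of the 38 genes, and Trdc, the delta chain constant gene, was at 0.66 (adjusted p = 0.440). The B cell and plasma cell markers had 5 of 11 above 0 and a median of -0.01, the macrophage markers 7 of 10 and 0.03, and the lymphoid tissue markers 5 of 7 and 0.15. Among the last, Cxcl13, a chemokine of B cell follicles, was at 1.14 (adjusted p = 0.163).

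The 2 lists of blood cells had medians below 0 with rCD5L in WT mice. Of 5 red blood cell genes tested, 0 had a log2 fold change above 0 in WT kidneys given rCD5L (median -0.65) and 0 were called. Their summed level was 221 to 495 CPM with PBS and 38.1 to 357 CPM with rCD5L. In CD5L KO mice 0 of 5 were also above 0 with rCD5L (median -0.54), 0 were called, and the sums were 203 to 408 CPM and 86.3 to 346 CPM. Of 5 neutrophil markers tested, 1 was above 0 in WT kidneys given rCD5L (median -0.33) and 0 were called. The part of blood left in the kidneys in the levels of the T cell and NK cell genes was not tested.

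These values depended on single kidneys. With kidney 1 of the WT PBS group left out, the genes had a median log2 fold change of 0.48, and for 20 of 38 the unadjusted p-value was under 0.05, as for 15.2% of all genes in that fit. Without kidney 1 of the mice given rCD5L, the median was 0.12 with 4 such genes of 38, beside 15.0% of all genes.

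To ask what loss of CD5L alone did, CD5L KO and WT kidneys given PBS were compared. Of 38 genes tested, 0 were called, beside 10.5% of all genes tested. The genes with an unadjusted p-value under 0.05 were 2, Thy1 and Havcr2, both lower in CD5L KO kidneys, where 26.6% of all genes had one. DESeq2 called both, 2 of 40 beside 8.14% of the 31595 genes with a count. No gene had groups without overlap, as 14.1% of all genes did. Each of these shares was below that of all genes.

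Thy1 (ENSMUSG00000032011, chromosome 9, 44043384 to 44048579) was at 79.6, 85.9, 81.7 and 55.1 CPM in the CD5L KO kidneys. In the WT kidneys it was at 107, 117, 80.3, 120 and 84.9 CPM. The log2 fold change was -0.44 (standard error 0.146, 95% interval -0.75 to -0.12, adjusted p = 0.0781 from edgeR), and the groups overlapped. It was called in 4 of 18 alternatives, with adjusted p-values from 0.0230 to 0.662. Of 7 fibroblast markers, 4 were called, all lower, and 2 had a log2 fold change above 0, with a median of -0.42 over the list. Those called included Pdgfra (-0.50, adjusted p = 0.00470), Col3a1 (-0.86, adjusted p = 0.00643) and Pdgfrb (-0.42, adjusted p = 0.00677). The summed level of the 7 was 2279 to 3103 CPM in CD5L KO and 3206 to 4923 CPM in WT kidneys, without overlap. Their part in the level of Thy1 was not tested.

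Havcr2 (ENSMUSG00000020399, chromosome 11, 46454935 to 46481255), which macrophages and dendritic cells carry as well as exhausted T cells, was at 8.32, 6.87, 7.40 and 6.66 CPM in CD5L KO and at 8.36, 12.3, 7.67, 9.999 and 10.1 CPM in WT kidneys. The highest CD5L KO kidney lay above the lowest WT kidney, and the log2 fold change was -0.41 (standard error 0.145, adjusted p = 0.0917). It was called in 2 of 18 alternatives, with adjusted p-values from 0.0408 to 0.459. Of 10 macrophage markers, 2 were called lower, Mertk (-0.39, adjusted p = 0.00575) and Csf1r (-0.47, adjusted p = 0.0386), with a median of -0.12 and summed levels of 1204 to 1871 CPM in CD5L KO and 1505 to 1908 CPM in WT kidneys. Their part in the level of Havcr2 was not tested.

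In the T cell receptor complex, the log2 fold changes were mostly of the other sign, with 0 genes called. In 5 of its 6 genes the log2 fold change was above 0, with 0.47 for Cd3d (standard error 0.271, adjusted p = 0.292), 0.45 for Cd3g, 0.42 for Cd247, 0.41 for Trbc1 and 0.36 for Trbc2, and -0.15 for Cd3e (standard error 0.392). Cd3d was at 8.96, 4.74, 4.41 and 5.15 CPM in CD5L KO and at 6.85, 3.92, 3.10, 3.33 and 3.66 CPM in WT kidneys. The CD5L KO kidneys were above 4 of the 5 WT kidneys, and the fifth, kidney 1, was above 3 of the CD5L KO kidneys. Without that WT kidney, the median went from 0.07 to 0.33, and the unadjusted p-value was under 0.05 for 10 of the 38 genes, near the 26.2% of all genes in that fit. Cd247 was at 5.11, 4.69, 3.25 and 3.49 CPM in CD5L KO and at 5.93, 1.98, 3.19, 1.83 and 2.46 CPM in WT kidneys, so that WT kidney 1 was above all the CD5L KO kidneys and the other 4 below them. Without WT kidney 1, Cd247 was called (log2 fold change 0.81, adjusted p = 0.0482), 1 of 38 beside 9.94% of all genes. Without kidney 1 of the CD5L KO mice, the median was -0.10, and without kidney 4 of the WT mice it was -0.01.

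Coreceptors were close to level between the genotypes, with log2 fold changes of -0.12 for Cd4 (95% interval -0.59 to 0.34), -0.07 for Cd8a (-0.68 to 0.54) and 0.14 for Cd8b1. Cd69, an early activation antigen, was at 0.49 (standard error 0.246, adjusted p = 0.224), with 4.30, 3.30, 1.62 and 2.86 CPM in CD5L KO and 1.95 to 2.52 CPM in WT kidneys. Gzmb had the largest log2 fold change, -0.52, with a standard error of 0.537 that exceeds it. Over the alternatives this value ranged from -0.91 to 0.13, so its sign was not kept. Gzmb was at 0.905, 0.826, 0.254 and 1.56 CPM in CD5L KO kidneys, of which kidney 3 was below the WT kidneys and the others were within their range, which kidney 1 of the WT mice extended to 3.05 CPM. Foxp3 was at -0.08 (95% interval -0.78 to 0.62), Ncr1 at 0.45 (-0.56 to 1.46) and Ptprc at -0.01 (-0.31 to 0.28).

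Of the other lists, 0 of 25 other T cell genes were called (11 above 0, median -0.05), with Cd96 at 0.69 (adjusted p = 0.158). Likewise, 0 of 16 other NK cell genes were called (11 above 0, median 0.08). Zbtb16, which encodes the innate-like T cell factor PLZF and is also expressed outside lymphocytes, was called lower in CD5L KO kidneys, at -2.86 (adjusted p = 0.00497), as the only one of 6 gamma-delta and innate-like genes tested.

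**Figure D3:**
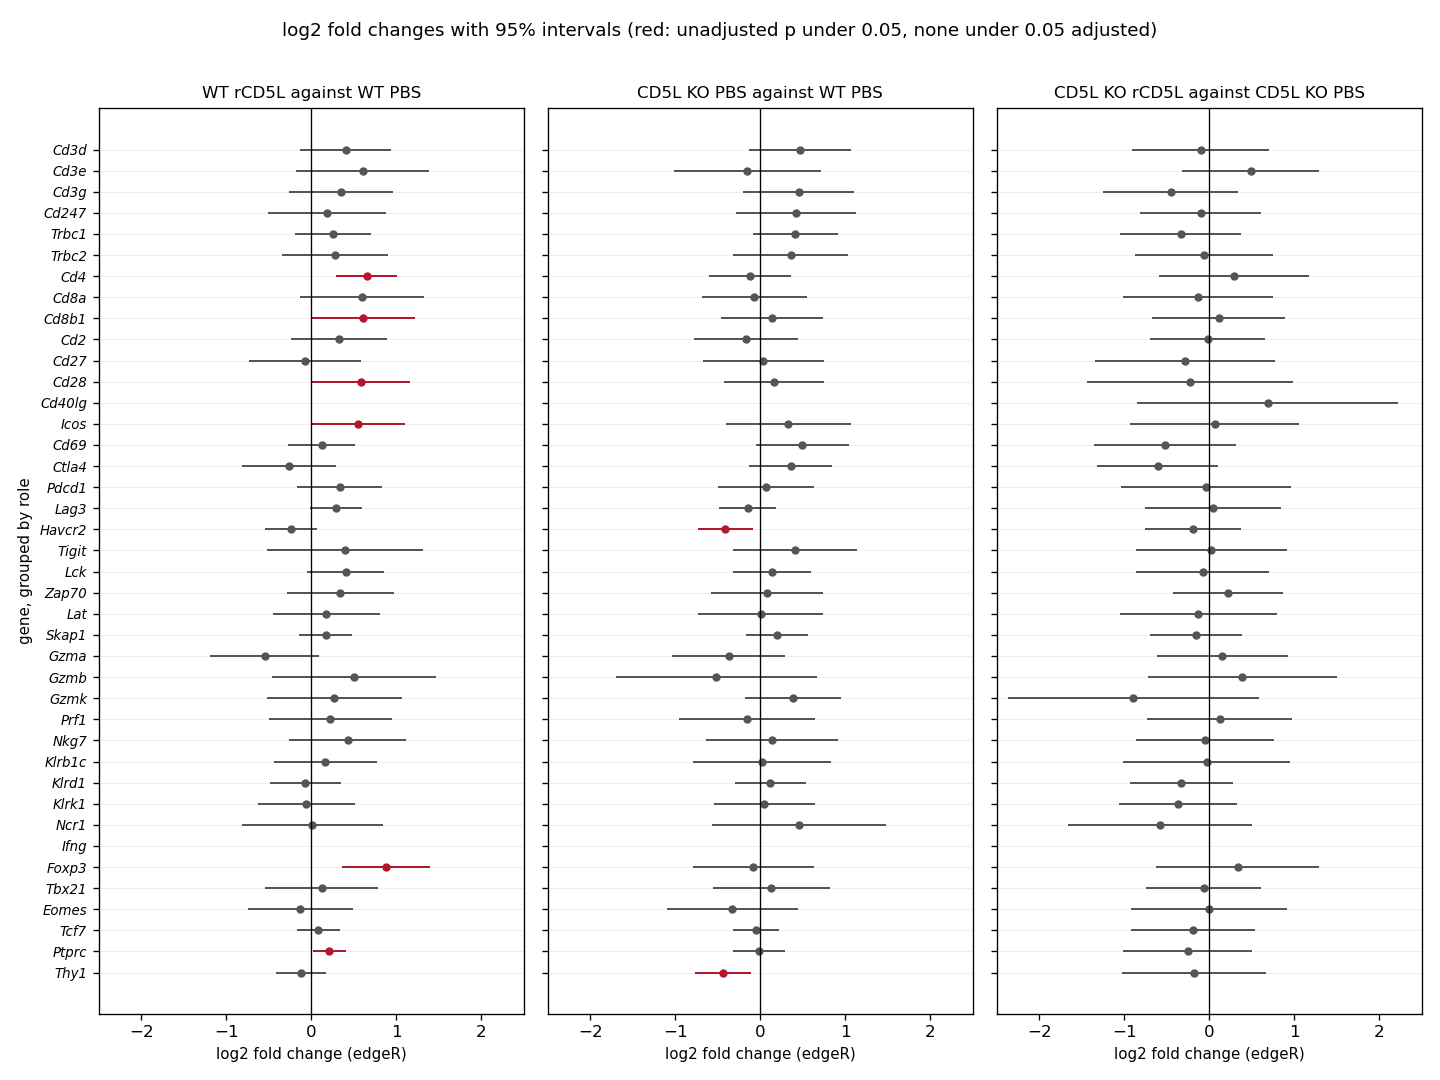
Points are log2 fold changes of each gene from edgeR and lines their 95% intervals, in 1 panel per comparison. Red marks an unadjusted p-value under 0.05, of which there are 6 for rCD5L in WT mice, 2 for CD5L KO against WT and 0 for rCD5L in CD5L KO mice, and 0 genes had an adjusted p-value under 0.05.

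To ask whether giving the missing protein back altered these genes, CD5L KO kidneys given rCD5L were compared with those given PBS. Of 39 genes tested, 0 were called and 0 had an unadjusted p-value under 0.05, where 0% and 2.87% of all genes tested did. DESeq2 called 0 of the 40 and 0.00962% of the 31176 genes with a count. No gene was without overlap between the groups, as 2.38% of all genes were. The biological coefficient of variation of this comparison was 28.8%, against 11.6% for rCD5L in WT mice, so the intervals were wide.

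Cd4 was at 10.9, 8.87, 5.98 and 7.29 CPM with PBS and at 11.3, 11.8, 9.72, 2.49 and 14.7 CPM with rCD5L. Apart from kidney 4, the treated kidneys were above 3 of the 4 given PBS, and the log2 fold change was 0.29 (95% interval -0.58 to 1.16). It was 0.53 without kidney 4 and 0.61 without kidneys 3 and 4. Foxp3 was at 1.90, 0.913, 0.659 and 1.93 CPM with PBS and at 1.47, 1.77, 2.97, 0.806 and 1.36 CPM with rCD5L. The groups overlapped, though treated kidney 3 was above all 4 given PBS and kidney 3 of the PBS group was below all 5 treated. The log2 fold change of Foxp3 was 0.33 (95% interval -0.62 to 1.28), or 0.50 without treated kidney 4 and 0.19 without treated kidneys 3 and 4.

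Cd3e was at 3.08, 2.78, 1.52 and 3.28 CPM with PBS and at 3.96, 4.65, 3.26, 1.39 and 5.14 CPM with rCD5L. Here 3 treated kidneys were above all 4 given PBS and kidney 4 was below them, with a log2 fold change of 0.48 (95% interval -0.31 to 1.28), or 0.68 without kidney 4 and 0.79 without kidneys 3 and 4. The other 5 genes of the T cell receptor complex were below 0, with Cd3g at -0.46, Trbc1 at -0.34, Cd3d at -0.10, Cd247 at -0.10 and Trbc2 at -0.06. Without kidneys 3 and 4, Cd3g was at -0.13 and Trbc1 at -0.14, while Cd3d (0.21), Cd247 (0.13) and Trbc2 (0.21) were above 0.

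Ptprc was at 135, 114, 81.5 and 103 CPM with PBS and at 108, 125, 49.8, 39.7 and 127 CPM with rCD5L. Kidneys 3 and 4 were below all 4 given PBS and the other treated kidneys were within their range, so that the log2 fold change went from -0.26 (95% interval -1.004 to 0.49) to -0.07 without kidney 4 and 0.16 without both. Cd8a was at 8.41, 5.82, 3.40 and 6.04 CPM with PBS and at 4.36, 9.13, 3.21, 2.49 and 7.43 CPM with rCD5L. Its log2 fold change was -0.14 (95% interval -1.004 to 0.73), or 0.03 without kidney 4 and 0.24 without kidneys 3 and 4.

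Gzmb was at 0.905, 0.826, 0.254 and 1.56 CPM with PBS and at 1.02, 2.15, 0.613, 0.953 and 0.967 CPM with rCD5L, a log2 fold change of 0.39 (95% interval -0.71 to 1.49) that was 0.44 without kidney 4 and 0.65 without both. Ncr1 was at 0.995, 1.43, 0.203 and 0.833 CPM with PBS and at 0.490, 0.646, 0.377, 0.879 and 0.527 CPM with rCD5L, at -0.58 (95% interval -1.65 to 0.49), or -0.76 without kidney 4 and -0.65 without kidneys 3 and 4. Both genes overlapped between the groups. Ifng, below the filter, was at 0.452, 0.348, 0.152 and 0.312 CPM with PBS and at 0.178, 0.172, 0.0472, 0.293 and 0.176 CPM with rCD5L, again with overlap.

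The largest log2 fold change was that of Gzmk, granzyme K, at -0.89 (standard error 0.660, adjusted p = 0.897). It was at 2.31, 1.91, 1.42 and 1.61 CPM with PBS and at 0.401, 2.63, 0.377, 0.0733 and 1.23 CPM with rCD5L, so 4 of the 5 treated kidneys were below all 4 given PBS and the fifth, kidney 2, was above them. Without kidney 4 the value for Gzmk was -0.63, and -0.34 without kidneys 3 and 4. Cd40lg was at 0.101 to 0.543 CPM with PBS and at 0 to 0.791 CPM with rCD5L, on 0 to 18 counts, with a log2 fold change of 0.69 (standard error 0.689). Ctla4 was at 2.31, 1.48, 1.83 and 2.39 CPM with PBS and at 0.757, 1.12, 2.03, 1.03 and 1.54 CPM with rCD5L. Kidneys 1, 2 and 4 of the treated group were below all 4 given PBS, and the log2 fold change of Ctla4 was -0.61 (standard error 0.317, adjusted p = 0.897). Without kidneys 3 and 4 the log2 fold changes of Cd40lg and Ctla4 were 0.87 and -0.80.

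The direction of the set as a whole rested on single kidneys. With all kidneys, 12 of 39 genes had a log2 fold change above 0 and the median was -0.08. Without kidney 4 of the treated group, 26 were above 0, the median was 0.09 and 14 genes had the other sign. Without kidneys 3 and 4 there were 29 above 0 with a median of 0.16, and without kidney 1 of the PBS group 21 with a median of 0.06. None of these fits called a gene of the set. The other T cell genes had 7 of 25 above 0 (median -0.07) and the other NK cell genes 3 of 16 (median -0.22), and 0 were called in either list.

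The level of Cd3e relative to Ptprc was without overlap between the groups in CD5L KO mice, while neither gene was. Of all single genes tested in that comparison, 2.38% were without overlap, and the share for ratios was not computed. The log2 fold change of Cd3e itself was 0.48 in that comparison, and those of the other 5 genes of the receptor complex were below 0. In CD5L KO mice the log2 ratio of counts was -5.44, -5.35, -5.72 and -4.96 with PBS. With rCD5L it was -4.76, -4.75, -3.92, -4.80 and -4.62. All 5 treated kidneys, kidney 4 included, were above all 4 given PBS, by a mean of 0.80 (two-sided exact permutation test, p = 0.0159, adjusted p = 0.190 over 12 ratio tests). With 5 against 4 kidneys, that is the smallest p this test can give. The ratio was not called, and at these group sizes and 12 tests no ratio could have been called alone. It was 0.63 without kidney 3, whose Ptprc was low, and 0.85 without kidney 4. In WT mice the same ratio was higher by 0.50 with rCD5L (exact permutation test, p = 0.175), with overlap.

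The other ratios were of Cd8a to Cd4, Foxp3 to Cd3e and Ncr1 to Cd3e. None of these was called in any comparison, nor could any of them have been called alone. Foxp3 relative to Cd3e was higher by 0.12 on the log2 scale in WT mice given rCD5L (exact permutation test, p = 0.786), and Ncr1 relative to Cd3e was lower, at -0.72 (p = 0.119). In CD5L KO mice Ncr1 relative to Cd3e was also at -0.72 with rCD5L (exact permutation test, p = 0.270). There 4 treated kidneys were below all given PBS and 1, kidney 4, was above them. Cd8a relative to Cd4 was at -0.20 (exact permutation test, p = 0.675) in WT mice given rCD5L. There the log2 ratio of treated kidney 1 was 0.52 and those of the other treated kidneys -1.23 to -1.002, against -1.09 to -0.27 with PBS.

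**Figure D4:**
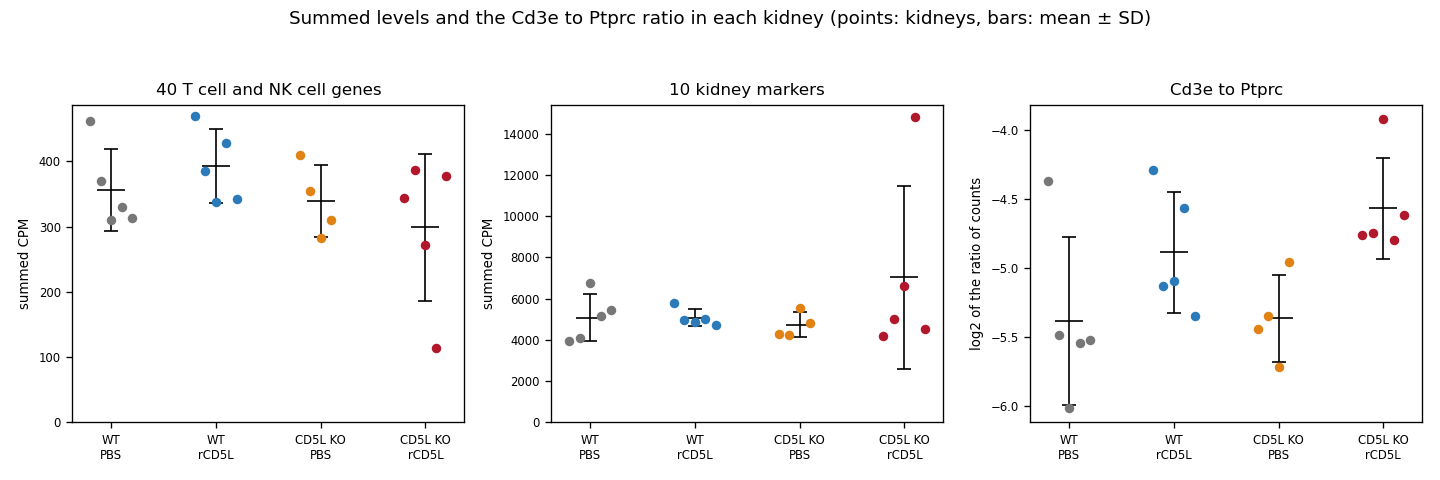
Panels show, for each kidney, the summed CPM of the 40 genes, the summed CPM of 10 kidney markers, and the log2 ratio of Cd3e to Ptprc counts, with means and SD by group. Kidney 4 of the CD5L KO mice given rCD5L is at 115 CPM in the first and 14785 CPM in the second, while its ratio lies with those of its group, above all 4 CD5L KO kidneys given PBS.

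Whether rCD5L acted differently in the genotypes was tested as an interaction over all 4 groups. Of 39 genes tested, 0 were called and 0 had an unadjusted p-value under 0.05, where 0% and 6.25% of all genes did. DESeq2 called 0 of these genes and 0% of all genes. In 4 of the 39 the interaction was above 0, that is, the log2 fold change with rCD5L was higher in CD5L KO than in WT mice, and the median was -0.32. It was -0.14 without kidney 4 of the treated CD5L KO mice, and -0.12 without kidneys 3 and 4. Single WT kidneys moved it too, to -0.60 without kidney 1 of the WT PBS group, where 2 of 39 were at an unadjusted p-value under 0.05 beside 5.89% of all genes, and to -0.17 without kidney 1 of the WT mice given rCD5L. It was -0.21 without kidney 1 of the CD5L KO mice given PBS.

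The largest were Gzmk (-1.14, standard error 0.764), Cd40lg (1.13, standard error 0.965) and Cd28 (-0.79, standard error 0.598). Gzmk was at 0.968 to 1.81 CPM in WT mice with PBS and at 0.878 to 3.58 CPM with rCD5L, and Cd40lg at 0 to 0.707 and 0.149 to 0.469 CPM. Cd28 was at 2.92, 1.26, 2.48, 1.67 and 1.53 CPM in WT mice with PBS and at 2.56, 2.52, 2.05, 4.32 and 3.27 CPM with rCD5L. In CD5L KO mice Cd28 was at 2.04, 2.61, 1.72 and 2.45 CPM with PBS and at 1.78, 3.36, 0.708, 0.293 and 3.08 CPM with rCD5L, where kidneys 3 and 4 were below every other kidney of the 4 groups. For Foxp3 the interaction was -0.53 (95% interval -1.53 to 0.48) and for Cd4 -0.35 (-1.23 to 0.54), so the higher values of both genes in WT kidneys given rCD5L were not shown to differ from those in CD5L KO kidneys. These comparisons share samples, since the WT and CD5L KO kidneys given PBS each enter more than one of them.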

How the data were processed

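The authors isolated RNA from whole obstructed kidneys, primed libraries with random hexamers, sequenced pairs of 150 bases, and used Trimmomatic for trimming, HISAT2 for alignment (GRCm38) and featureCounts for counting. They deposited raw counts per gene and FPKM values for 54532 genes. Versions, strand setting and the treatment of multiply aligned reads are not given in the sources used here, nor is how FPKM was made.

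Columns were matched to samples by name. Counts were tested with edgeR 4.0.16 in R 4.3.3 (TMM factors, glmQLFit, glmQLFTest, and filterByExpr at min.count 10) over all genes, with only the 2 groups compared in a fit and all 4 in the interaction. The tests were checked on simulated counts. Alternatives were DESeq2 1.42.0, RLE factors, other filters, 1 fit of all 19 kidneys, the replicate number as a block, FPKM with limma 3.58.1, a gene length offset and leaving out each replicate. Ratios used a pseudocount of 0.5 counts. Chi-square per degree of freedom was 6.63 to 319 over the 36 pairs within groups, so each kidney counted as 1 sample.

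All 40 genes are accounted for by role. Values by kidney or as a range are given for Ptprc, Cd3e, Cd4, Cd8a, Foxp3, Gzmb, Ncr1 and Ifng, for genes called or without overlap, for the 3 largest changes of a comparison, and, of each other list, by name at most the 3 genes with the smallest p-value. The genes and lists were chosen with earlier results of these data known. Limits and intervals for counts cover counting error only. The labels give the kidneys as separate samples of a group, and p-values measure the spread between them.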

Additional observations from a re-analysis of the deposited data

Results flagged for a closer look

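In 26 of 160 sets of kidneys, 1 for each of the 40 genes in each group, 1 kidney was far from the others of its group by Dixon's criterion at 95%. Chance flags about 1 in 20 such sets. These fell on 19 genes and mostly on the same few kidneys.

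Kidney 1 of the WT mice given PBS was the high one for 14 genes. Its levels were 7.47 CPM for Cd2, 6.85 for Cd3d, 6.41 for Cd3e, 12.2 for Lat, 17.9 for Lck, 7.21 for Zap70 and 13.0 for Trbc2, all of T cell receptor signalling or adhesion. The coreceptors Cd4 and Cd8b1 were at 13.7 and 5.08 CPM. The cytotoxic and NK cell genes Gzmb, Nkg7, Klrd1 and Klrk1 were at 3.05, 9.42, 6.28 and 11.9 CPM, and Ifng at 0.663 CPM.

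Kidney 1 of the WT mice given rCD5L was high for Cd2 (7.50 CPM), Cd8a (19.6 CPM), Cd8b1 (8.95 CPM), Gzmk (3.58 CPM) and Nkg7 (11.8 CPM). In CD5L KO mice given PBS, kidney 1 was high for Cd3d (8.96 CPM) and kidney 3 for Tigit (1.57 CPM). In CD5L KO mice given rCD5L, kidney 2 was high for Gzmb (2.15 CPM), and kidney 4 was low for Cd2 (1.39 CPM), Lck (3.004 CPM), Thy1 (15.97 CPM) and Trbc1 (1.69 CPM).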

How the results depend on the processing

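No gene of the T cell and NK cell list that was called under any setting had the other sign there. For CD5L KO PBS against WT PBS, the number of these genes called was 0 with edgeR, 2 with DESeq2 (Thy1 and Havcr2), 1 with no filter (Thy1), and 0 to 2 when each replicate was left out, with Cd247 called without WT PBS replicate 1 and Thy1 and Havcr2 without WT PBS replicate 3. Of all genes, edgeR called 1850 there, or 10.5%, DESeq2 2571, or 8.14%, and edgeR with no filter 1588, or 5.03%. The number was 12 with all 19 samples in 1 fit, 967 and 986 with limma on FPKM at pseudocounts of 1 and 0.1, and 1015 to 2062 without single replicates. For rCD5L in WT mice, DESeq2 and edgeR with no filter each called 1 of the genes, Cd4, and leaving out single replicates called 0 or 1, Cd4 without WT PBS replicate 1. Of all genes, 0 were called with edgeR, 508 with DESeq2, 137 with no filter and 0 to 39 without single replicates, with 39 without WT PBS replicate 1. For rCD5L in CD5L KO mice, DESeq2 called 3 genes, none of them in the list, and edgeR 0. The causes were not tested. No ratio could have passed the threshold alone at these group sizes and 12 tests, so the alternatives of the ratios say nothing about their stability.

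With the replicate number as a block, 1 gene of the list, Thy1 (adjusted p = 0.0498), was called between CD5L KO and WT, and 0 in the other comparisons, while 2132 of all genes, or 12.1%, were called between CD5L KO and WT. For rCD5L in WT mice, the block took the genes with an unadjusted p-value under 0.05 from 6 to 15, of which 14 were higher, beside 14.9% of all genes. For rCD5L in CD5L KO mice it took their median log2 fold change from -0.08 to -0.31. Correlations of the deviations of same-numbered samples were -0.05 to 0.11 for CD5L KO against WT, 0.02 to 0.18 for rCD5L in CD5L KO mice and -0.05 to 0.00 for rCD5L in WT mice. Pairs 1 and 3 of the first and of the second comparison were over 0.1 and correlated best with their own number, as 2 of 4, 2 of 4 and 0 of 5 pairs did. Not every pair was over 0.1, so the numbers were not taken as pairs.

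Depth limits Ifng and Cd40lg, which were under 10 counts in 16 and 11 kidneys. Intervals were also wide for Gzmb, Ncr1, Gzmk and Foxp3, and counts of Gzmb in WT PBS and of Gzmk in CD5L KO rCD5L kidneys had coefficients of variation of 85.1% and 114%. The part of depth in these was not tested. Leaving out replicates 3 and 4 of the CD5L KO mice given rCD5L together was chosen after seeing the data.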
